A study of Homo sapiens with 7 samples.

Results

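Transcripts of 8 small nucleolar RNA (snoRNA) host genes, GAS5, SNHG1, SNHG3, SNHG5, SNHG6, SNHG7, SNHG8 and SNHG12, and of the nuclear long noncoding RNAs MALAT1 and NEAT1 were examined in NCI-H520 cells, an established line of squamous lung carcinoma. The genes were chosen by name, and every gene probe whose accession maps to one of them was reported. This gave 10 probes for 9 of the 10 genes, out of 42405 gene probes in all; no probe mapped to NEAT1. Each of the 10 probes has 1 spot per array.

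The data are 7 one-colour Agilent arrays with 1 array per group. The cells received 6 µg of pLKO.1 plasmid with an shRNA against PARN, CNOT6, CNOT6L, CNOT7 or nocturnin (NOC), and the 2 control groups received the empty vector or a non-target shRNA. All groups were under puromycin at 6 µg/mL from 12 h and were harvested at 72 h, so that every array comes from cells exposed to this translation inhibitor; untransfected cells were not analysed here. The labels give the same target accession for the CNOT6L and the NOC shRNA.

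The 5 targeted enzymes are deadenylases, which shorten the poly(A) tails of RNA. A snoRNA host gene carries snoRNAs in its introns: splicing releases the intron, exonucleases trim it back to the snoRNA, and the spliced exons leave a host transcript that often codes for no protein. Box C/D snoRNAs guide 2′-O-methylation and box H/ACA snoRNAs guide pseudouridylation of ribosomal and other RNA, while scaRNAs do the same for spliceosomal RNA in Cajal bodies. Many host genes begin with a stretch of pyrimidines, as ribosomal protein genes do, and several host transcripts, GAS5 among them, are known to be degraded by nonsense-mediated decay when they are translated. MALAT1 resides in nuclear speckles and ends in a triple helix in place of a poly(A) tail, and NEAT1 is the scaffold of paraspeckles.

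By the RefSeq gene table, 32 snoRNA genes lie within the members, of which 11 lie in GAS5, 9 in SNHG1, 4 in SNHG12, 2 each in SNHG3, SNHG5 and SNHG7, and 1 each in SNHG6 and SNHG8; there was none in MALAT1 or NEAT1. GAS5, SNHG1, SNHG5 and SNHG6 are mainly or wholly box C/D hosts, SNHG3, SNHG7 and SNHG8 are box H/ACA hosts, and SNHG12 carries both classes. The sequences around the annotated starts are shown because this pyrimidine stretch is the feature by which host genes are grouped with the ribosomal protein genes. Each is a window of 30 bases on the gene's strand in GRCh38.p14 from RefSeq, with the annotated first base at place 16, and capitals mark the longest unbroken run of C and T that touches the stretch from 5 bases before to 10 bases after the start.
GAS5 (chr1:173869031-173869060, minus strand): tgccatcatgaaTTCagatgtgtttatttt
SNHG1 (chr11:62855871-62855900, minus strand): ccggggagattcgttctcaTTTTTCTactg
SNHG5 (chr6:85678719-85678748, minus strand): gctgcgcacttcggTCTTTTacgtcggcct
SNHG3 (chr1:28505928-28505957, plus strand): cctcagtgagtttctgaTTCTCTaactgcg
SNHG7 (chr9:136728170-136728199, minus strand): gCTTCCCTTCTCgtcctctgcgtgcgccgg
SNHG8 (chr4:118278747-118278776, plus strand): aaggcctcggCCTTTCacattcgggaagcg
SNHG12 (chr1:28581859-28581888, minus strand): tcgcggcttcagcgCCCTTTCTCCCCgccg
MALAT1, entry 1 (chr11:65497723-65497752, plus strand): ccccgCTCTCCCCTCCgcagcctgcagccc
MALAT1, entry 2 (chr11:65499030-65499059, plus strand): cccgagctgtgcggtaggcaTTgaggcagc

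The run was 12 bases long in SNHG12, 11 in SNHG7, 7 in SNHG1 and 6 in SNHG3, SNHG5 and SNHG8. Of all 35116 promoter entries, 26.3% held a run of at least 6 bases in this place, 17.9% one of at least 7, 4.95% one of at least 11 and 3.76% one of at least 12. In GAS5 it was 3 bases long. The run included the annotated first base in SNHG5, SNHG8 and SNHG12, ended before it in SNHG7 and GAS5, and began after it in SNHG1 and SNHG3. In SNHG7 and SNHG1 the first base, a C, lies in a shorter run of C and T that was not marked. In all, 5 of the 7 host gene entries started with C or T, against 21.9% of all entries. GAS5 started with A and SNHG3 with G. MALAT1 has 2 entries, with runs of 11 and 2 bases. Only the gene's strand was searched, and the table holds 1 annotated start per entry, which need not be the one used in these cells.

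Levels are log2 processed signals from which the array's own 75th percentile was taken away, so that a level of 0 is the array's 75th percentile and a difference of 1 is a 2-fold difference. A level compares arrays for 1 probe and does not rank the genes against each other. With 1 array per group there is no replicate of any shRNA, and the distance between the control arrays is the only spread at hand that involves no deadenylase shRNA. The scanner software gave each member spot an error of 0.14 on the log2 scale, nearly the same whatever the signal. For probes with 2 spots, the median standard deviation between the spots was 0.05 to 0.07 by array. All 10 probes were well above background on every array, save 1 spot of SNHG8 that the software marked as an outlier, and none was saturated.

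Several facts of the arrays bear on these values. The CNOT6 shRNA array was the dimmest, with a 75th percentile of 1360 against 3939 for CNOT7 shRNA, the brightest, and 82.0% to 91.4% of gene probes were well above background. The empty-vector, non-target, PARN and CNOT6 arrays lie in row 1 of the slide and the CNOT6L, CNOT7 and NOC arrays in row 2, so that row and these 3 shRNAs cannot be told apart against the controls; the image of the NOC array was extracted on another day than the others. On its own array, the targeted gene was at 45.7% of the control mean for PARN, 89.5% for CNOT6, 63.0% and 57.1% for the 2 probes of CNOT6L, 54.5% and 50.7% for the 2 probes of CNOT7 and 74.8% for NOCT, each its lowest value of the 7. Of the markers of the line, all 5 epithelial genes and the squamous genes SOX2 and KRT6A were above background on every array, KRT5 on 4, TP63 on 2 and DSG3 on none. KRT6A, a keratin, was the one marker 2-fold from both controls, at -0.77 with CNOT6L shRNA against -1.84 and -1.91 on the controls; the 4 leukocyte, 3 endothelial and 2 hepatocyte markers were above background on all as well.

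The member transcripts differed little between the arrays. In RNA of whole cultures, less RNA per cell and fewer cells with the RNA cannot be told apart. No member probe lay 2-fold from both control arrays on any shRNA array, against 0.736% of all gene probes for PARN, 0.641% for CNOT6, 1.01% for CNOT6L, 1.35% for CNOT7 and 1.76% for NOC. With shares this low, most sets of 10 probes would hold none, so that this count says little about the members. Of 49 member values on the shRNA arrays, 48 lay within 1.5-fold of the control mean, and the remaining one was MALAT1 on the NOC array. The median absolute difference from the control mean was 0.15 for the members and 0.23 for the 33742 probes above background on all arrays, and the median range over the 7 arrays was 0.44 against 0.71. The 2 control arrays themselves differed at least 2-fold for 16.5% of all gene probes and for 0 of the 10 member probes. The member probes were bright, with mean levels between percentiles 76.2 and 99.5 of all gene probes. These comparisons with all probes were not matched for brightness, and its part in them was not tested.

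**Figure D1:**
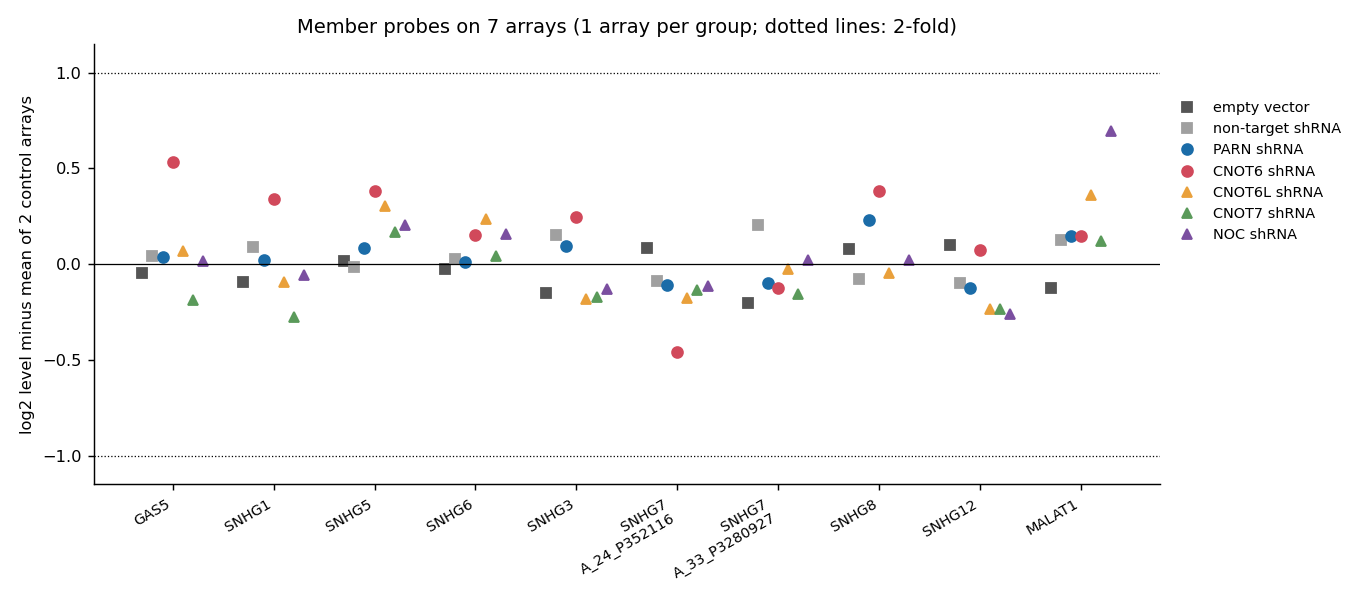
Log2 level of each member probe minus the mean of the 2 control arrays, on all 7 arrays; each point is 1 array, squares are controls, circles the shRNA arrays of slide row 1 and triangles those of row 2. Every point lies inside the dotted 2-fold lines, and MALAT1 on the NOC array lies highest at 0.69.

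When the 5 shRNA arrays were tested together against the 2 control arrays with limma, no probe of 38084 passed an adjusted p of 0.05 (0%), and the smallest adjusted p was 0.478; 1432 probes, none of them a member, had an unadjusted p under 0.05. This test treats different shRNAs as if they were replicates, and its spread is that between shRNAs and between control plasmids. Among the members the largest estimates were 0.29 (SE 0.17) for MALAT1 and 0.23 (SE 0.11) for SNHG5, with unadjusted limma p of 0.12 and 0.072 and an adjusted p of 0.999992 for both. Over 18 fits, which were this one and those with other settings or without 1 array, the lowest adjusted limma p of a member was 0.484, for SNHG5 without the PARN array.

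GAS5 hosts the largest number of snoRNAs in the set and is named for its accumulation in growth-arrested cells. The GAS5 probe A_33_P3326285, designed on NR_002578, had a level of 5.72 with the empty vector, 5.81 with the non-target shRNA, 5.80 with PARN shRNA, 6.29 with CNOT6 shRNA, 5.83 with CNOT6L shRNA, 5.58 with CNOT7 shRNA and 5.78 with NOC shRNA. The CNOT6 array stood highest, 0.46 above the next, and the CNOT7 array lowest, while the other 5 arrays lay within 0.11 of each other. The CNOT6 value was 0.53 above the control mean, or 1.45-fold, where the control arrays were 0.09 apart. With quantile normalization this difference was 0.13. Before any scaling, the processed signal of GAS5 was lowest on the CNOT6 array of all 7, at 106729 against 120956 to 204930 on the others.

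SNHG1 carries box C/D snoRNAs, and its spliced transcript is known as a short-lived host RNA with little coding content. Its probe A_24_P785293 had levels of 5.72 and 5.90 on the empty-vector and non-target arrays, 5.83 with PARN shRNA, 6.15 with CNOT6 shRNA, 5.71 with CNOT6L shRNA, 5.53 with CNOT7 shRNA and 5.75 with NOC shRNA. As for GAS5, the CNOT6 array was highest and the CNOT7 array lowest, and the CNOT6L and NOC arrays were not separated from the controls. The difference of the CNOT6 array from the control mean was 0.34, and it became -0.02 with quantile normalization. Over the 7 arrays the profiles of GAS5 and SNHG1 had a Pearson r of 0.93, the highest of the pairs of member probes; these points share their array and its scaling.

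SNHG5, the host of SNORD50A and SNORD50B, was the member for which every shRNA array lay above both controls. The levels of A_23_P361085 were 5.06 with the empty vector and 5.03 on the non-target array. They were 5.13 with PARN shRNA, 5.43 with CNOT6 shRNA, 5.35 with CNOT6L shRNA, 5.21 with CNOT7 shRNA and 5.25 with NOC shRNA. The control arrays differed by only 0.03 here, less than the software error of 1 spot, so that the shRNA and control groups do not overlap although the largest difference from the control mean was 0.38, or 1.30-fold. The PARN array lay 0.07 above the empty vector and 0.10 above the non-target array, which is also less than that error. Of the 9 member probes with a value on all arrays, SNHG5 was the only one with all 5 shRNA arrays above both controls, against 3.07% of all probes above background on every array. With quantile normalization the CNOT6 difference was 0.10 and the CNOT6L difference, at 0.21, was the largest.

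SNHG6, which hosts SNORD87, had the smallest range of the members, 0.26. The level of A_33_P3280930 was 4.18 and 4.23 on the empty-vector and non-target arrays, 4.22 with PARN shRNA, 4.36 with CNOT6 shRNA, 4.44 with CNOT6L shRNA, 4.25 with CNOT7 shRNA and 4.36 with NOC shRNA. All shRNA arrays but that of PARN lay above both controls, by at most 0.24 from the control mean. Its profile was most like that of SNHG5 among the members, with a Pearson r of 0.85 over the 7 arrays.

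SNHG3 is the host of the H/ACA snoRNAs SNORA73A and SNORA73B. Its probe A_33_P3280945 had levels of 1.58 with the empty vector, 1.88 with the non-target shRNA, 1.82 with PARN shRNA, 1.98 with CNOT6 shRNA, 1.54 with CNOT6L shRNA, 1.56 with CNOT7 shRNA and 1.60 with NOC shRNA. The values formed an upper set of the non-target, PARN and CNOT6 arrays and a lower set of the empty-vector array and the 3 arrays of row 2. The control arrays lay on both sides, 0.30 apart, each 0.15 from their mean. From that mean the CNOT6 array was 0.25, the CNOT6L array -0.18, the CNOT7 array -0.17, the NOC array -0.13 and the PARN array 0.09. Set against each control alone, the CNOT6 array was 0.40 above the empty vector and 0.10 above the non-target array.

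SNHG3 is also the only host here whose snoRNA genes have probes of their own. SNORA73A had a level of -0.94 with the empty vector, -1.66 with the non-target shRNA, -1.05 with PARN, -1.07 with CNOT6, -0.44 with CNOT6L, -0.64 with CNOT7 and -0.65 with NOC shRNA. The SNORA73B probe A_33_P3355407 had levels of -0.37, -1.18, -0.43, -0.36, 0.18, -0.10 and -0.03 on the arrays in the same order, and the other, A_33_P3254695, had -0.24, -0.67, -0.06, 0.10, 0.18, 0.07 and 0.11. The latter differed from the others in lying above the empty vector with PARN shRNA also, and its CNOT6 level was above its CNOT7 level. With CNOT6 shRNA it was 0.34 from the empty vector, against 0.01 for A_33_P3355407 and -0.13 for SNORA73A. On the non-target array all 3 snoRNA probes were at their lowest while SNHG3 was at its second highest, and on the row 2 arrays the snoRNA probes lay above both controls while SNHG3 lay at or near the empty-vector level. SNORA73A and SNORA73B are copies of closely similar sequence, so that their probes may share signal, and mature snoRNAs have no poly(A) tail; which RNA species these probes report was not tested.

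**Figure D2:**
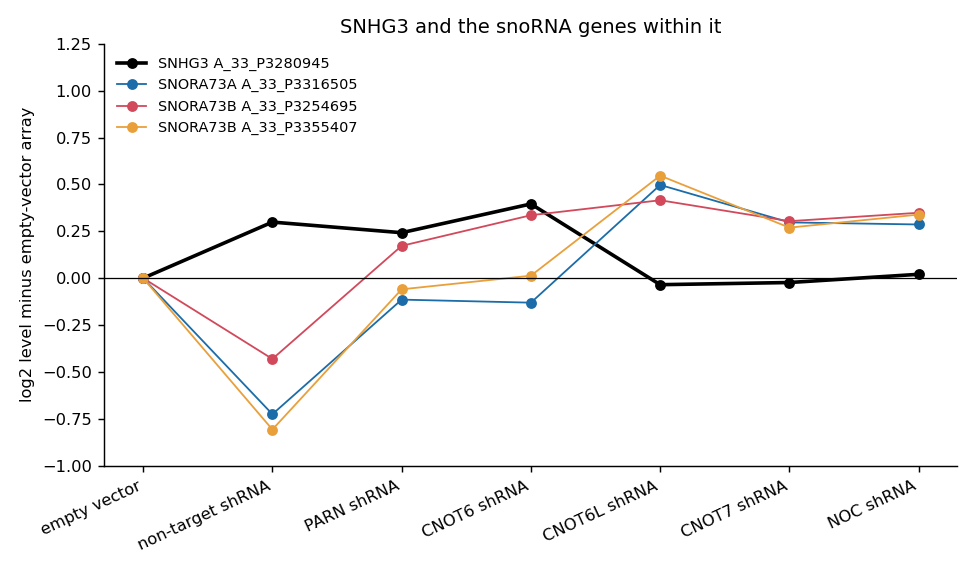
Log2 level of SNHG3 and of the 3 probes for SNORA73A and SNORA73B minus the level of the same probe with the empty vector, for the 7 arrays; lines join the points of 1 probe and imply no order. On the non-target array SNHG3 lies 0.30 above and the snoRNA probes 0.43 to 0.81 below the empty vector.

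SNHG7 is the host of SNORA17A and SNORA17B and the one member with more than 1 probe. The probe designed on NR_003672, A_24_P352116, had levels of -0.32 with the empty vector, -0.49 with the non-target shRNA, -0.51 with PARN shRNA, -0.87 with CNOT6 shRNA, -0.58 with CNOT6L shRNA, -0.54 with CNOT7 shRNA and -0.52 with NOC shRNA. All 5 shRNA arrays lay below both controls, 4 of them close to the non-target array and the CNOT6 array 0.28 below the next; among all probes above background on every array, 3.36% had the 5 shRNA arrays below both controls. The probe designed on NR_024542, A_33_P3280927, had levels of 0.43, 0.84, 0.54, 0.51, 0.61, 0.48 and 0.65 on the arrays in the same order. Here every shRNA array lay between the controls, which were 0.41 apart, so that the probes of SNHG7 disagree on the CNOT6 array: -0.46 from the control mean for the first and -0.13 for the second. The first value was -0.50 with quantile normalization.

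SNHG8 hosts SNORA24. The levels of A_32_P38467 were 5.11 with the empty vector, 4.95 with the non-target shRNA, 5.26 with PARN shRNA, 5.41 with CNOT6 shRNA, 4.99 with CNOT6L shRNA and 5.05 with NOC shRNA. The PARN and CNOT6 arrays lay above both controls, by 0.23 and 0.38 from the control mean, and the CNOT6L and NOC arrays lay between the controls. The spot on the CNOT7 array was marked as an outlier and left out; kept, its level would be 4.58, the lowest of the 7. In the main limma fit the estimate for SNHG8 was 0.15 (SE 0.15, 6 arrays) with an unadjusted p of 0.35. With the outlier spot kept it was 0.03 (SE 0.20), with an unadjusted limma p of 0.90. With the slide row as a term and the spot left out, the limma estimate was 0.30 (SE 0.11, 6 arrays). Its unadjusted p was 0.031 and its adjusted p 0.925.

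SNHG12 carries snoRNAs of both classes. Its probe A_23_P74581 had levels of 3.68 with the empty vector, 3.49 with the non-target shRNA, 3.46 with PARN shRNA and 3.66 with CNOT6 shRNA in row 1. In row 2 the levels were 3.35 with CNOT6L shRNA, 3.35 with CNOT7 shRNA and 3.32 with NOC shRNA. The 3 arrays of row 2 lay close together and below all 4 of row 1, by 0.23 between the row means. This separation was found for 1 of the 9 member probes with a value on all arrays, against 16.2% of all probes above background on every array, and the row and the shRNAs cannot be told apart. The reverse, row 2 wholly above row 1, was found for none of these 9 probes and for 9.84% of all probes.

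MALAT1 had the widest range of the members, 0.82 or 1.76-fold. Labelling primed from poly(A) tails, in place of which MALAT1 ends in a triple helix. How its RNA was primed, and so which part of it this probe reports, was not tested. The level of A_24_P873659 was 1.38 with the empty vector and 1.63 on the non-target array. It was 1.65 with PARN shRNA, 1.65 with CNOT6 shRNA, 1.86 with CNOT6L shRNA, 1.62 with CNOT7 shRNA and 2.20 with NOC shRNA. The NOC array stood 0.33 above the next, the empty-vector array lay lowest, and the non-target, PARN, CNOT6 and CNOT7 arrays were within the software error of 1 spot. The NOC value was 0.82 above the empty vector, 0.57 above the non-target array and 0.69 above their mean, or 1.62-fold. It was 0.65 above the control mean with quantile normalization and 0.79 with normexp background correction, and MALAT1 was highest on the NOC array with these, without scaling, in the authors' table and with outlier spots kept. Of all probes above background on every array, 9.86% were highest on the NOC array, against 1 of the 10 member probes. In row 2 alone, the NOC array was 0.45 above the mean of the CNOT6L and CNOT7 arrays; the day of image extraction moves with this array, and its part was not tested.

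Among 16477 named genes compared, the profiles most like that of MALAT1 over the 7 arrays were those of ATP6AP1, an accessory subunit of the vacuolar proton pump (Pearson r 0.98), RNF13, an endosomal ubiquitin ligase (0.98), MAD1L1, a spindle checkpoint protein (0.97), PAK4, a protein kinase (0.96), and NELFCD, a subunit of the negative elongation factor (0.96). In all, 47 of the 16477 genes had an r above 0.9. The 5 genes were picked as the highest of 16477 on the same 7 values. How many would reach such an r without any link to MALAT1 was not tested. The 5 named profiles share the NOC array as the highest point of 7, and the range of RNF13, 0.74, came closest to that of MALAT1, while that of NELFCD was 0.22.

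**Figure D3:**
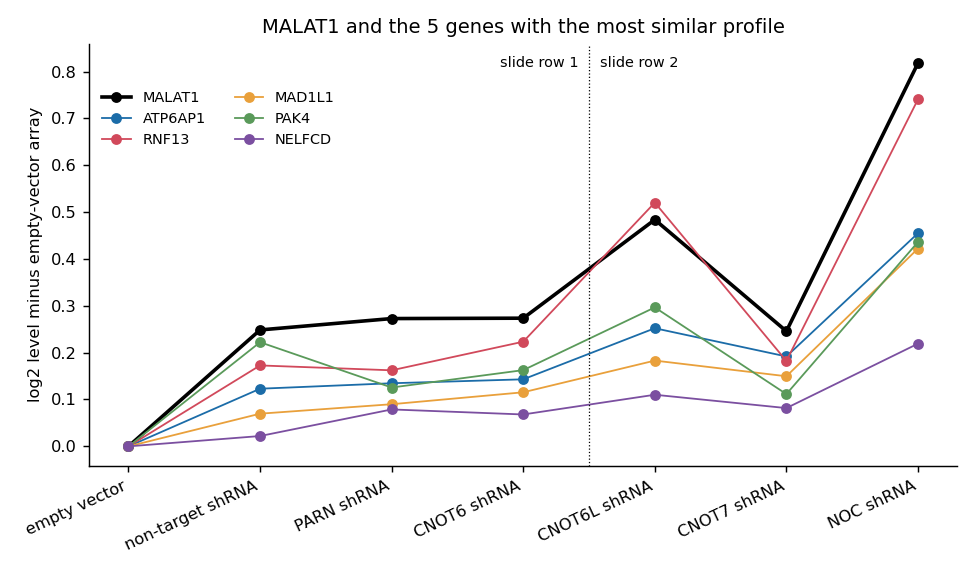
Log2 level of MALAT1 and of the 5 genes with the highest Pearson r to it, each minus its own level with the empty vector, for the 7 arrays in slide order; lines join the points of 1 probe and imply no order. MALAT1 lies 0.82 above its empty-vector level on the NOC array, with the CNOT6L array second.

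By array, the members lay above both controls most often with CNOT6 shRNA. There 7 of 10 member probes lay above both controls, by any amount, against 41.9% of all probes above background on every array. The corresponding counts were 3 of 10 with PARN shRNA (25% of all probes), 4 of 10 with CNOT6L shRNA (30.2%), 2 of 9 with CNOT7 shRNA (26.7%) and 3 of 10 with NOC shRNA (28.6%). The CNOT6 array was the highest of the 7 for GAS5, SNHG1, SNHG3, SNHG5 and SNHG8, 5 of 10 probes, where 28.3% of all probes were highest there. The median of the members on this array was 0.20 above the control mean and that of all probes above background on every array was 0.11. With quantile normalization both were near 0, at 0.04 and -0.0038, and only GAS5 and SNHG3 were still highest on the CNOT6 array, 2 of 10 against 15% of all probes. Without scaling no member was. With normexp background correction the same 5 of 10 probes were highest there, but so were 48.9% of all probes. The member median was then 0.18, below the 0.26 of all probes above background on every array. The CNOT6 array was the dimmest, and on it CNOT6 itself was the targeted gene closest to its control mean. Of the markers of other cell types above background on every array, 2 of 3 fibroblast, 1 of 4 leukocyte, 2 of 3 endothelial and 1 of 2 hepatocyte markers lay above both controls. The part of each of these in the result was not tested.

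**Figure D4:**
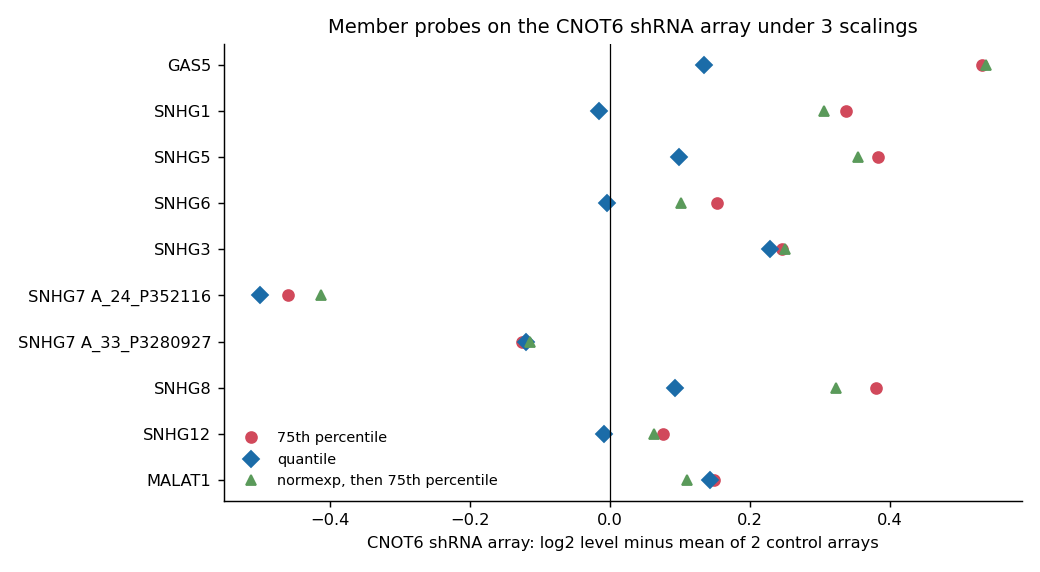
Difference of the CNOT6 shRNA array from the mean of the 2 control arrays, in log2, for each member probe under 3 ways of scaling. The differences of GAS5, SNHG1, SNHG5 and SNHG8 shrink toward 0 with quantile normalization, to between -0.02 and 0.13, whereas those of SNHG3, MALAT1 and both SNHG7 probes stay near their first value. With normexp the median of all probes above background on every array was itself 0.26.

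On the other shRNA arrays the member median lay nearer to the controls. It was 0.03 above the control mean on the PARN array, where the members ranged from -0.12 for SNHG12 to 0.23 for SNHG8 and the median of all probes was 0.00. It was -0.04 with CNOT6L shRNA, where MALAT1 was highest at 0.36, -0.16 with CNOT7 shRNA, where SNHG1 was lowest at -0.28, and 0.02 with NOC shRNA, where SNHG12 was lowest at -0.26. The medians of all probes above background on every array were -0.02, -0.07 and -0.05 on these 3 arrays. The empty-vector and non-target arrays differed for the member probes by a median absolute value of 0.18, against 0.29 for all probes above background on every array. Brightness was not matched here either.

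Other host genes were set beside the members. Of 43 other host genes, 32 had a probe, 45 in all, and none of these probes was 2-fold from both controls on any array. Of the 29 genes whose brightest probe was above background on every array, 22 lay above both controls and 1 below on the CNOT6 array, with a median of 0.22 beside the 0.20 of the members. On the PARN array 9 lay above and 6 below, with a median of 0.03. The largest differences averaged over the shRNA arrays were those of SNHG20, with levels of -0.25 and -0.05 on the empty-vector and non-target arrays and -0.84, -0.94 and -0.62 on the CNOT6L, CNOT7 and NOC arrays, and of RPS3, a ribosomal protein gene with levels of 4.21 and 4.24 on the controls and 4.88, 4.82 and 4.80 on those 3 arrays. Both separate row 2 from row 1.

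Of the proteins that work with these RNAs, none of the 8 core snoRNP proteins, 13 assembly factors, 12 nonsense-mediated decay factors, 10 paraspeckle proteins and 10 nuclear speckle proteins was 2-fold from both controls on any array, by any of its probes. NOP56, a core box C/D protein and itself a host gene, had levels of 4.14 and 4.03 on the empty-vector and non-target arrays and 3.81, 3.80 and 3.71 with CNOT6L, CNOT7 and NOC shRNA. SNU13, which binds the C/D motif, had 4.15 and 4.13 on the controls, 4.49 with CNOT6 shRNA and between 4.16 and 4.34 on the other shRNA arrays. PIH1D1, of the assembly complex, stood at 3.25 and 3.60 on the controls and 2.92 with CNOT6L shRNA, and NAF1, an H/ACA assembly factor, at -3.26 and -3.58 on the controls and -3.93 with CNOT6L shRNA.

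The decay factor SMG1, a kinase, had levels of 2.88 and 2.35 on the empty-vector and non-target arrays and 1.93 and 2.0 with CNOT6L and CNOT7 shRNA; UPF3B, an exon junction adaptor, had 1.63 and 1.77 on the controls, 1.28 with CNOT6 shRNA and 1.32 with CNOT6L shRNA. Among the paraspeckle proteins PSPC1 had the lowest value on the CNOT7 array, 0.69 against 2.19 and 1.62 on the controls, and RBM14 lay between 3.14 and 3.31 on the row 2 arrays against 3.67 on each control. Among the speckle proteins SON, which holds speckles together, had 2.15 and 1.48 on the controls and 2.36 with PARN shRNA, and the splicing factor SRSF5 had 4.55 and 4.56 on the controls, 4.83 with CNOT6 shRNA and 4.25, 4.31 and 4.25 with CNOT6L, CNOT7 and NOC shRNA.

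Of 22 other long noncoding or structural RNAs, 18 had a probe and none was called. MIR22HG, the host of a microRNA, stood at 0.79 with the empty vector and 2.21 with the non-target shRNA, and between 0.37 and 0.58 on the row 2 arrays. RMRP, the RNA of the RNase MRP complex, had 0.12 and -0.40 on the controls and between 0.37 and 0.78 on the 5 shRNA arrays, all above both controls.

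The snoRNA and scaRNA genes that have probes of their own, 26 in number, were set beside the members. The reason is that PARN is known to trim the oligoadenylated 3′ ends of H/ACA snoRNAs and scaRNAs. Only 2 of the 26, SNORA73A and SNORA73B, lie within a member, so the others are not compared with their own hosts. None of the 26 was 2-fold from both controls on any array. On the PARN array 20 of the 26 lay above both controls, against 25% of all probes above background on every array, with a median of 0.35 above the control mean where that of all probes was 0.00. The 10 member probes on the same array had a median of 0.03, with 3 of 10 above both. These 3 were SNHG5, SNHG8 and MALAT1, which is not a host gene. By class, 11 of 12 scaRNA genes, 5 of 10 H/ACA genes and 4 of 4 box C/D genes lay above both. The mean levels of the 26 genes ran from -5.47 for SCARNA1 to 5.73 for SNORD3B-1. Most of these genes were dimmer than every member probe. The comparisons with the members and with all probes were not matched for brightness, and its part was not tested. Labelling primed from poly(A) tails, and which RNA species the probes of these 26 genes report was not tested.

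SCARNA6 and SNORA74A differed most on average over the 5 shRNA arrays. SCARNA6 had levels of -3.82 and -4.78 on the empty-vector and non-target arrays and -3.44 with PARN shRNA, and SNORA74A had -5.40 and -5.80 on the controls, -5.54 with PARN shRNA and -4.52 with CNOT6L and with NOC shRNA. SCARNA17, named after its values were seen, had the largest difference from the empty-vector array on the PARN array, 0.74, and was 0.83 above the non-target array. The non-target array was the lower control for 22 of the 26 genes. It was also the lower control in general, with a median of 0.20 for empty vector minus non-target over all gene probes. With PARN shRNA, 25 were above the non-target array, by a median of 0.55 over all 26, and 20 were above the empty vector, by a median of 0.18. For all probes above background on every array, these medians were 0.06 and -0.05.

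The counts on the other arrays were 15 of 26 with CNOT6 shRNA, 11 with CNOT6L shRNA, 11 with CNOT7 shRNA and 17 with NOC shRNA, where the shares of all probes were 41.9%, 30.2%, 26.7% and 28.6%. The median on the NOC array was 0.30, near that on the PARN array, so that the PARN array was not alone in this. With quantile normalization 21 of 26 were above both controls on the PARN array and 20 on the NOC array, and with normexp background correction 24 of 26, where 40.1% of all probes were, and 17. Without scaling the count on the PARN array was 1 of 26, against 0.536% of all probes. The genes of this list were taken by name, but the list was chosen with earlier results of these data known. Several of the genes share sequence, and the list was given no test.

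**Figure D5:**
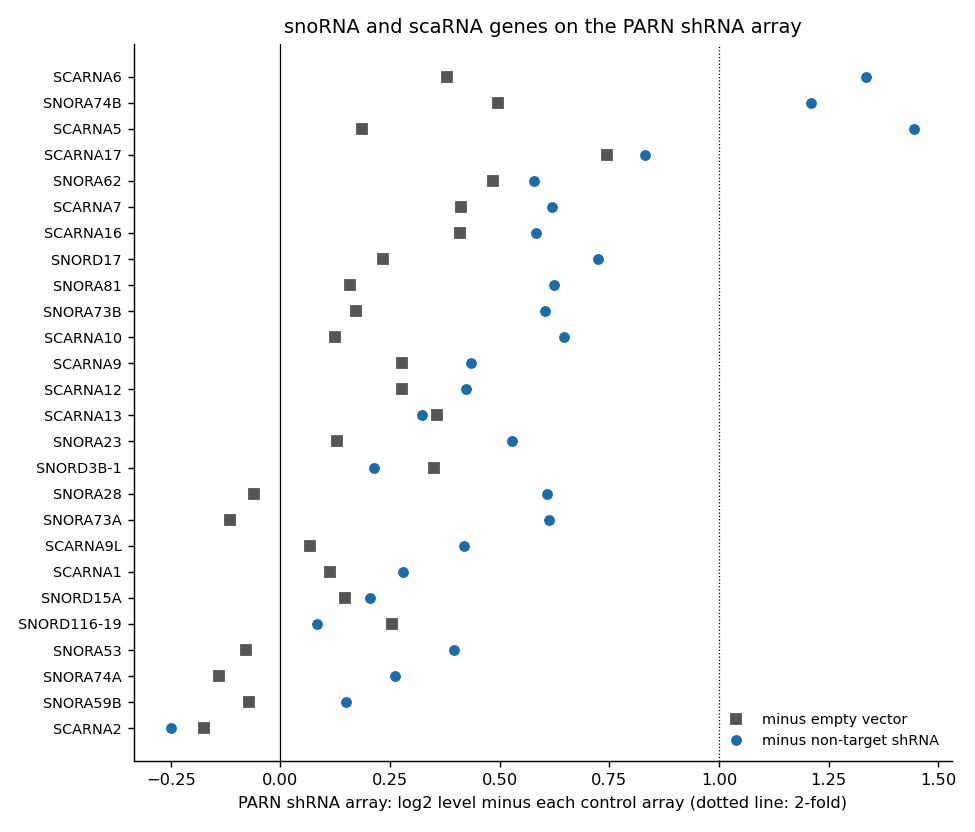
Difference of the PARN shRNA array from the empty-vector array (squares) and from the non-target array (circles), in log2, for the 26 snoRNA and scaRNA genes with a probe, brightest probe of each. For 20 genes both points lie right of 0, and for none do both lie right of the dotted 2-fold line.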

How the data were processed

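Total RNA of NCI-H520 cells was labelled with Cy3 by the authors with the Low Input Quick Amp kit, which primes from poly(A) tails, and hybridised to Agilent one-colour arrays read with Feature Extraction 10.7.3.1, per the file headers. The scanner files hold intensity: the authors deposited the processed signal, background-corrected by the software and not scaled between arrays. The log2 table deposited by the authors is centred per probe on the median, its scaling between arrays is not given in the sources used here, and its differences matched the scanner values within 0.02 apart from 1 shift per array for 100% of probes above background on all arrays.

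Control spots and outlier spots were left out, spots of a probe were averaged as log2 values and the array's 75th percentile was subtracted. Accessions were named through RefSeq (GRCh38.p14), which named 24827 of 42405 gene probes. A call needed a difference of 2-fold or more from each control array, both of one sign, with the brighter side above background; a dim side was set to no less than the lowest value above background. limma 3.58.1 (R 4.3.3; a two-sided moderated test with a mean-variance trend and Benjamini-Hochberg adjustment) compared 5 shRNA with 2 control arrays, over probes that 2 or more arrays had above background, and was tested on simulated data first. In this fit the SNHG8 spot of the CNOT7 array was missing. Normexp (offset 50) was run on the median signal, since the mean signal was not used here.

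For list genes the brightest probe was taken. The text names all member probes, the targeted genes, per list, marker lists included, any called gene, and for the lists of related genes without one the 2 with the largest mean difference from the controls, and the 5 genes most like the member with the widest range; genes named beyond these were chosen after their values were seen. The members and lists were chosen with earlier results of these data known. NOP56 and DKC1 stand in 2 lists.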

Additional observations from a re-analysis of the deposited data

How the results depend on the processing

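No paired analysis was possible because each group has 1 array and all carry the same replicate number. The number of arrays limits precision, not their depth: all member probes were well above background. Without scaling, 2 member probes were 2-fold from both controls on the CNOT6 array, and the member medians against the control mean were -0.30 for PARN, -0.80 for CNOT6, 0.36 for CNOT6L, 0.37 for CNOT7 and 0.23 for NOC shRNA, with 0.43 for the empty vector minus the non-target array; the medians of all probes shifted with them, to -0.34 for PARN and -0.88 for CNOT6. In limma, 3 probes of all those tested were called without scaling, and between 0 and 63 when 1 array was left out: 63 without the empty vector, 1 without the non-target shRNA. No member probe was called in any of the 18 fits. The other settings (quantile, normexp, the authors' table, outlier spots kept, either control alone, row 2 mates, other folds and filters) left the member counts and medians within the spread used, which is the median gap of the control arrays, 0.18. Of the 49 single member differences, 8 changed sign with quantile normalization, 5 with normexp, 2 with the authors' table, 8 against either control alone and 30 without scaling. Of the 29 on the row 2 arrays, 13 changed sign when set against the other arrays of that row in place of the controls.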
